A study of Mus musculus with 3 samples.

Results

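The monocyte-attracting CC chemokines Ccl2, Ccl7, Ccl8 and Ccl12, known as ligands of the receptor Ccr2, were followed through immune cells of the mouse intestinal muscularis before and after injury. They were chosen by name, as the 4 genes with these symbols among the 14148 genes measured. Single cell RNA sequencing had been performed on sorted CD45+ cells from the muscularis of female C57BL/6J WT mice aged 12 weeks. The mice were either naive or had undergone intestinal manipulation, a laparotomy in which the small intestine is rolled with a cotton applicator, 24 h or 72 h earlier. All mice had the same WT genotype and no gene was deleted in any group. Each time point was 1 library pooled from several mice, so that time and library cannot be told apart, no test between time points was possible, and every interval below is a 95% interval that covers counting error only.

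CC chemokines are small secreted proteins that bind receptors on leukocytes and direct their migration along a gradient. Ccr2 on Ly6c+ monocytes is best known for bringing these cells out of the bone marrow and into inflamed tissue, where they mature into macrophages (Mφs). Ccl2 is the classical ligand of Ccr2, Ccl7 binds Ccr2 and other CC receptors, mouse Ccl8 is also described as a ligand of Ccr8, and Ccl12 is a rodent chemokine closely related to Ccl2. Scavenging receptors such as Ackr2 take up several of these ligands without signalling.

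The 4 genes lay side by side on the forward strand of chromosome 11 (GRCm38, GENCODE M21 annotation), each with 3 exons, within 81.2 kb. In genomic order they were Ccl2 (82035571 to 82037453), Ccl7 (82045712 to 82047525), Ccl12 (82101845 to 82103400) and Ccl8 (82115185 to 82116799), and the fifth protein-coding gene of the interval was Ccl11, the eosinophil chemokine eotaxin. Over aligned bases their coding sequences were 73.8% to 81.0% identical between pairs, with Ccl2 and Ccl7 the closest pair at 81.0% of 279 aligned bases. Gaps were left out of these shares, and the coding sequence was 444 bases long in Ccl2 against 291 in Ccl7. The longest exact run shared by 2 transcripts was 23 bases, between Ccl2 and Ccl7, so that the 4 are paralogs but not near-identical copies. A gene annotated on the opposite strand, Gm17268, spanned the whole of Ccl2 and was not analysed here.

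Upstream sequence is shown for Ccl12 and Ccl8, the neighbouring pair for which a promoter entry of RefSeq was at hand (2 of the 4 members). The 250 bases before each start site, on the forward strand of GRCm38.p6, are chr11:82101595-82101844 for Ccl12 and chr11:82114935-82115184 for Ccl8. Capitals mark the 3 runs of at least 7 bases that were identical at the same place in an alignment of both windows.
Ccl12: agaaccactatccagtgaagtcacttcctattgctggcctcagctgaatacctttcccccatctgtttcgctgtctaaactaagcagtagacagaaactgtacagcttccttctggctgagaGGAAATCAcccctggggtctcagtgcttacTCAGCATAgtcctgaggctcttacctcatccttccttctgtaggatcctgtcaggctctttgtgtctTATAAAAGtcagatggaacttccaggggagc
Ccl8: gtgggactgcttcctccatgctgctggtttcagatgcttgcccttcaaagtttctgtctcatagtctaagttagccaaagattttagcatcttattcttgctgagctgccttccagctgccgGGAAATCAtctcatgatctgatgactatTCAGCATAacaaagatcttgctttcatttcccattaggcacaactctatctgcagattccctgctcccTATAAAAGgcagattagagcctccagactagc
Of 220 aligned bases, 161 (73.2%) were identical. Gaps were left out of this count, and no other pair of windows was aligned for comparison. The runs were picked from these 2 windows, so that their shares among all windows are a description and no test. The run GGAAATCA began 128 bases before the start site in both genes and was found on either strand of 0.983% of the 32851 promoter windows of the same length. The run TCAGCATA began 98 bases before the start of Ccl12 and 100 bases before that of Ccl8, and occurred in 0.481% of windows. TATAAAAG, which contains the TATA box letters TATAAA, began at 31 and 32 bases and occurred in 1.51% of windows, whereas TATAAA alone was in 12.4%. Neither window held the interferon-stimulated response element (2.98% of all windows) or the letters TTCNNNGAA of the STAT site (7.02%), TGANTCA of AP-1 (6.75%), TTNNGNAA of C/EBP (36.8%) or the kappaB motif (9.55%). All motifs were searched on both strands, and absence of these letters from 250 bases says nothing about binding of a factor.

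In the naive, 24h and 72h libraries 652, 2211 and 1239 cells were present, with 1865221, 10542346 and 5246731 unique molecular identifiers (UMIs, 1 per counted transcript). A cell held a median of 2134.5, 4669 and 3295 UMIs, respectively. Clustering without the chemokine and receptor genes gave monocytes/Mφs (139, 1544 and 581 cells at naive, 24h and 72h), neutrophils (12, 411 and 111), dendritic cells (DCs, 30, 124 and 158), T cells (188, 71 and 136), B cells (268, 34 and 50) and a further cluster that scored as neutrophil but had Siglecf, an eosinophil gene, among its leading genes (15, 27 and 203), which is given as the Siglecf cluster. Groups under 20 cells in a library were not compared. Of markers of cells outside the CD45 gate, 2 of 4 for enteric glia were measured, with 0, 6 and 6 UMIs in the 3 libraries. For fibroblasts 5 of 5 were measured, with 2, 3 and 27 UMIs, and no cell held 5 or more of either list. Smooth muscle markers had 30, 67 and 130 UMIs, with 5 or more in 1, 0 and 3 cells. Endothelial markers had 83, 239 and 154 UMIs, of which Pecam1 gave 82, 182 and 148. Epithelial markers had 29, 8 and 31 UMIs, with 5 or more in 1 cell at 72h. No mesothelial marker was measured. Levels (CPM) are the UMIs of a gene per 1000000 UMIs, after adding up all cells of a group. UMIs were counted at the 3′ end, so that they were not divided by transcript length.

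Monocytes/Mφs held almost all of the CCR2-ligand UMIs. At 24h they made up 69.8% of cells and held 98.2% of Ccl2, and between 97.7% and 98.2% of the UMIs of each of the 4 genes. At 72h they held 88.8% to 95.9%, and in the naive library, in which they were 21.3% of cells, 75.0% to 89.9%. Classes differed in depth, so that a share of cells is not a share of all UMIs. The plot of levels by cell class shows the monocytes/Mφs above every other class for all 4 genes in each library.

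**Figure D1:**
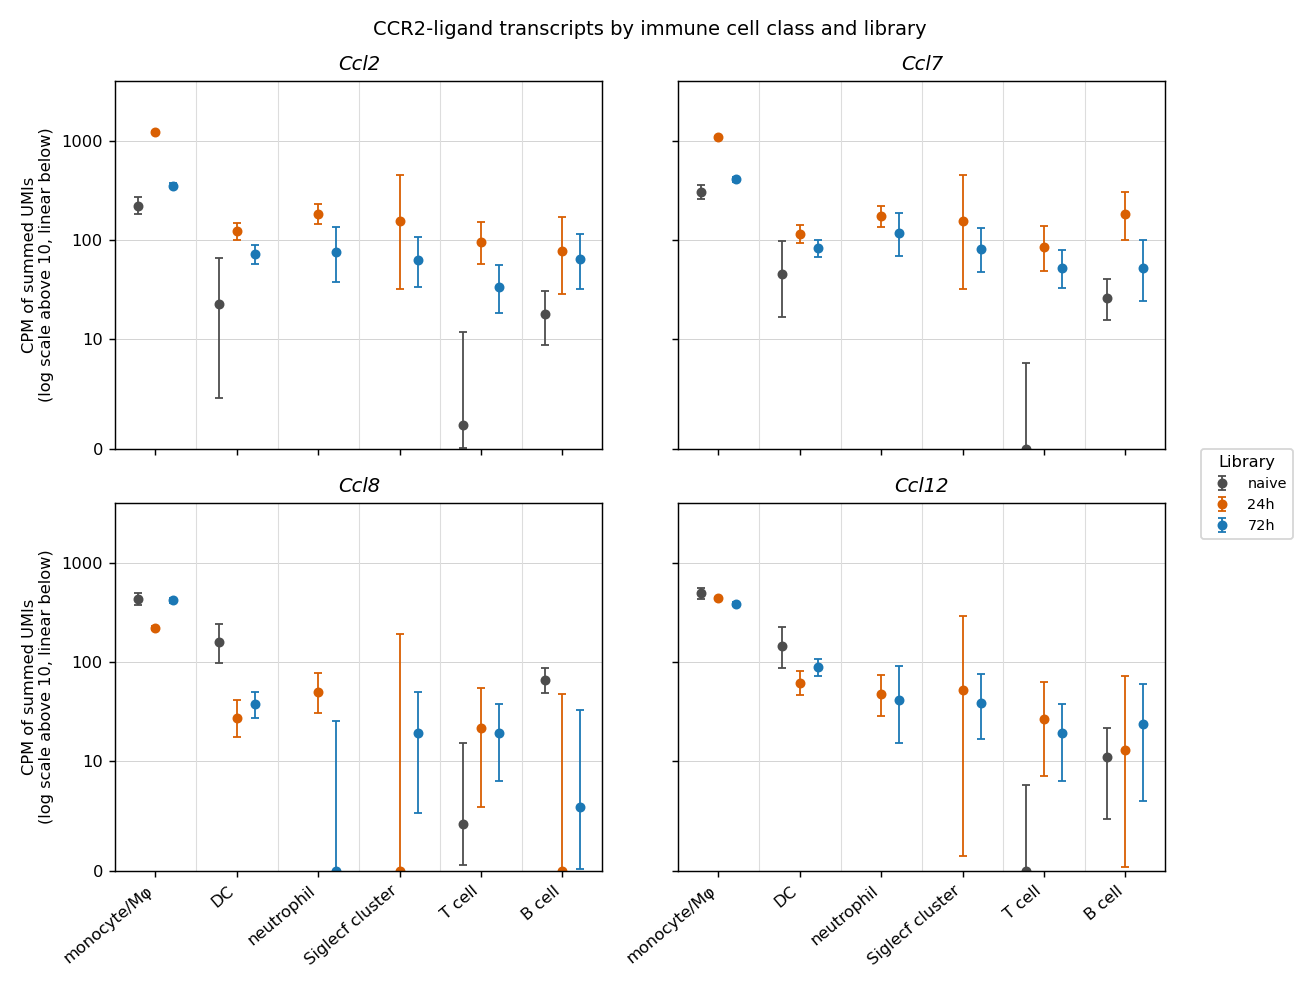
Level in CPM of Ccl2, Ccl7, Ccl8 and Ccl12 (y axis, log scale above 10 and linear below) in each immune cell class with at least 20 cells (x axis), by library (colour), with bars for the exact Poisson interval. In every library monocytes/Mφs are the highest class for each gene, and in them Ccl2 and Ccl7 are highest at 24h while Ccl8 and Ccl12 are not.

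Within monocytes/Mφs Ccl2 and Ccl7 were highest at 24h, and Ccl8 and Ccl12 were not. Ccl2 was at 221 CPM (109 UMIs) in the naive library, 1226 CPM (11032 UMIs) at 24h and 351 CPM (1098 UMIs) at 72h. Ccl7 followed the same course, with 302, 1079 and 406 CPM from 149, 9715 and 1270 UMIs. At 72h both were still above the naive level. Ccl8, in contrast, was lowest at 24h, with 432 CPM (213 UMIs) in the naive library, 218 (1959 UMIs) at 24h and 415 (1300 UMIs) at 72h. Ccl12 stayed within a narrow range of 489 CPM (241 UMIs), 439 (3952 UMIs) and 382 (1196 UMIs).

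As ratios of CPM between libraries, Ccl2 was 5.54-fold (4.59 to 6.76) and Ccl7 3.57-fold (3.04 to 4.23) higher at 24h than in the naive library. The corresponding ratios were 0.504 (0.437 to 0.583) for Ccl8 and 0.898 (0.788 to 1.03) for Ccl12, an interval that includes equal levels. A ratio of at least 2 was thus reached by 2 of the 4 members, against 11.4% of the 2812 genes that reached 50 CPM in one library or both, and a ratio of 0.5 or less by 0 members, against 8.39%. The median log2 ratio of the 4 was 0.84, beside 0.23 over all genes compared. From 24h to 72h, Ccl2 and Ccl7 were again the 2 members past 2-fold, now lower at 0.286 (0.269 to 0.304) and 0.376 (0.354 to 0.399) times the 24h level, against 4.86% of 2693 genes. Ccl8 was 1.91-fold higher at 72h than at 24h (1.78 to 2.05), just under 2-fold, and 0 members were above it, against 3.75% of genes. Between 72h and naive, 0 members passed 2-fold in either direction, against 2.27% of 2642 genes higher and 4.05% lower, with ratios of 1.59 for Ccl2, 1.34 for Ccl7, 0.961 (0.831 to 1.12) for Ccl8 and 0.781 for Ccl12.

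A single cell carried much of the naive Ccl8 signal. It held 104 of the 213 UMIs, and without it the naive level was 223 CPM, near the 218 CPM of the 24h library. With the highest cell of each library left out, the log2 ratio of Ccl8 at 24h over naive moved from −0.99 to −0.16. Without the 3 highest cells of each library Ccl8 was at 157 CPM in naive cells and 179 at 24h, so that the lower level at 24h rested on few cells, and at 339 CPM at 72h. The other naive values rested less on 1 cell, the highest holding 17 of 109 UMIs for Ccl2, 22 of 149 for Ccl7 and 40 of 241 for Ccl12. Over all cells of a library, whose makeup of classes differed, Ccl8 was at 152, 190.3 and 258 CPM.

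The share of cells with a UMI gave a similar order. After each cell had been thinned to 1500 UMIs, Ccl2 was detected in 18.2% of naive, 56.5% of 24h and 27.1% of 72h monocytes/Mφs, and Ccl7 in 15.7%, 47.3% and 26.0%. Ccl12 was found in 25.6%, 27.2% and 27.1% of these cells, so that its detection was nearly level. Ccl8 was found in the fewest cells in each library, 12.4%, 9.60% and 18.7%. In T cells, which are not counted among the usual sources of these chemokines, the thinned share at 24h was 17.4% for Ccl2, 11.6% for Ccl7, 4.35% for Ccl8 and 2.90% for Ccl12. Before thinning, Ccl2 was detected in 78.3% of monocytes/Mφs and 22.5% of T cells at 24h, with median depths of 5931 and 2400 UMIs.

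The UMIs of Ccl8 were concentrated in few cells. At 24h, the 154 monocytes/Mφs with the most UMIs of a gene, a number equal to 10% of the class, held 51.8% of Ccl2, 58.4% of Ccl7, 69.0% of Ccl12 and 91.7% of Ccl8. Cells with 10 or more UMIs numbered 322 for Ccl2, 280 for Ccl7 and 105 for Ccl12, but 47 (3.04%) for Ccl8. The median cell with Ccl8 held 1 UMI, and the highest 160.

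Re-clustering of the monocytes/Mφs gave the states Ly6c+ monocytes, Ccr2+ int Mφs, Fabp5+ Mo/Mφs, Arg1+ Mo/Mφs, Cd206+ Mφs, Timp2+ Mφs and Cx3cr1+ Mφs, each named from at least 3 of its markers. Clusters 2, 5 and 9 stayed unnamed. The Arg1+ Mo/Mφs were named from 4 of 5 markers, Srgn, Slc7a11, Il1rn and Hilpda, and Arg1 itself did not pass. Arg1 was instead among the leading genes of cluster 2, with Ltc4s and Klk8. In cluster 5, with a median of 2110.5 UMIs, 0 of the state markers passed, and cluster 9 was led by B cell genes. The immunoglobulin genes Igkc and Jchain also led the Cx3cr1+ Mφs. States with at least 20 cells in a library are compared, and in the plot of levels by state most of them reach that number in only 1 library.

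**Figure D2:**
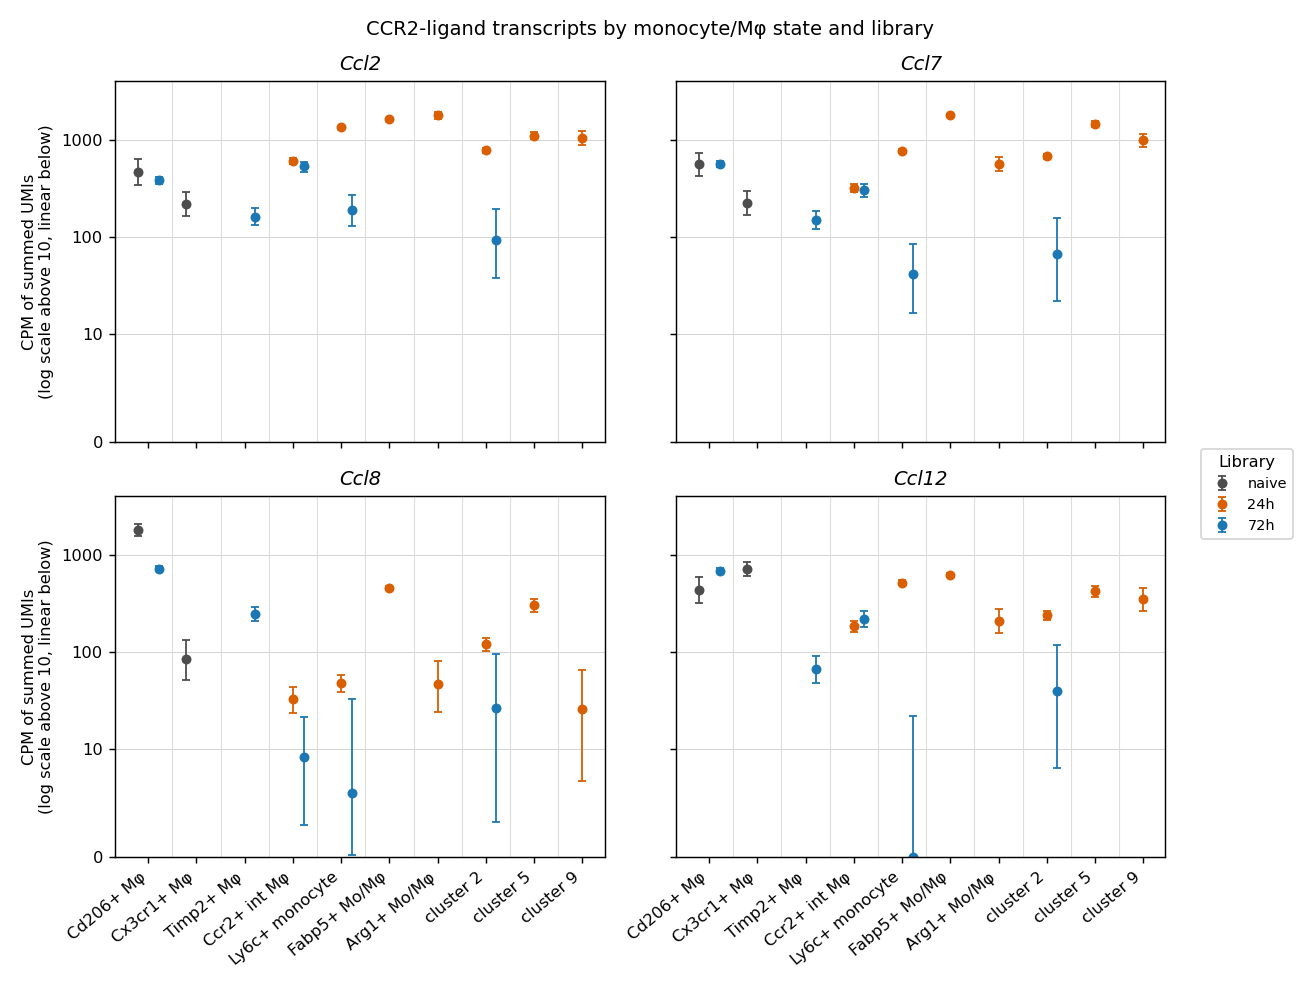
Level in CPM of each ligand (y axis, log scale above 10 and linear below) in monocyte/Mφ states and unnamed clusters with at least 20 cells in a library (x axis), by library (colour), with exact Poisson intervals. At 24h Fabp5+ Mo/Mφs are highest for Ccl7, Ccl8 and Ccl12, and at 72h Cd206+ Mφs are highest for the same 3 genes.

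Among the sorted CD45+ cells at 24h, Fabp5+ Mo/Mφs, which carry the fatty acid binding genes Fabp5 and Fabp4, were the leading source of the family. They were 443 of the 2211 cells of the 24h library and held 45.6% of its Ccl2, 56.6% of its Ccl7, 71.5% of its Ccl8 and 48.3% of its Ccl12 UMIs. These cells were deeper, with a median of 6983 UMIs beside 4669 over the library, which adds to such shares but not to CPM. Among the 7 states and clusters of this library, Ccl7 was highest in Fabp5+ Mo/Mφs at 1779.6 CPM, followed by cluster 5 at 1447, cluster 9 at 983, Ly6c+ monocytes at 766, cluster 2 at 672, Arg1+ Mo/Mφs at 562 and Ccr2+ int Mφs at 319.6. Each step of this order was larger than counting error, but the places of 2 small groups rested on 1 cell. The level without it was 611 CPM in cluster 9, where that cell held 63 of 153 UMIs, and 379 CPM in Arg1+ Mo/Mφs, where it held 50 of 145. A UMI count of 10 or more Ccl7 was reached by 40.6% of Fabp5+ Mo/Mφs and by 12.3% of Ly6c+ monocytes.

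Ccl8 differed most sharply between states at 24h. It stood at 455 CPM in Fabp5+ Mo/Mφs, 302 in cluster 5 and 121 in cluster 2, while the remaining 4 states lay between 25.7 and 47.7 CPM and did not differ from their neighbours in the order beyond counting error. In cluster 5 the cell with the most Ccl8 held 59 of 175 UMIs, and the level without it was 202 CPM. Ccl12 was also highest in Fabp5+ Mo/Mφs at 616 CPM, with Ly6c+ monocytes next at 516, and was at 183 in Ccr2+ int Mφs.

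For Ccl2, the highest value at 24h was that of Arg1+ Mo/Mφs at 1772 CPM, but 1 of their 47 cells held 164 of the 457 UMIs, and without it the level was 1171 CPM. Fabp5+ Mo/Mφs followed at 1622 CPM, a difference within counting error, then Ly6c+ monocytes at 1339.7, cluster 5 at 1094, cluster 9 at 1041 (734 without 1 cell that held 54 of 162 UMIs), cluster 2 at 779 and Ccr2+ int Mφs at 605. The highest state was 1.62-fold above the median state for Ccl2, beside 2.32-fold for Ccl7, 9.53-fold for Ccl8 and 1.74-fold for Ccl12.

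Set directly against Ly6c+ monocytes of the same library, Fabp5+ Mo/Mφs had 9.53-fold more Ccl8 (7.75 to 11.8) and 2.32-fold more Ccl7 (2.20 to 2.46), but only 1.21-fold more Ccl2 and 1.19-fold more Ccl12. This made 2 of 4 members at least 2-fold higher, against 3.14% of the 2737 genes compared, and 0 members at least 2-fold lower, against 6.03%. Ly6c+ monocytes in turn exceeded Ccr2+ int Mφs, which express MHCII genes, by 2.21-fold for Ccl2, 2.40-fold for Ccl7 and 2.82-fold for Ccl12, so that all 3 members with at least 50 CPM in either state passed 2-fold, against 4.20% of 2689 genes (1.12% were at least 2-fold lower). Ccl8 was at 47.7 and 32.4 CPM in these states, below that minimum.

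At 72h the leading state among those with at least 20 cells was the Cd206+ Mφs, which express Mrc1, the mannose receptor, and other genes of tissue-resident macrophages. They were 20.7% of the cells of the library and held 41.8% of Ccl2, 53.3% of Ccl7, 71.5% of Ccl8 and 69.6% of Ccl12 UMIs. Their median depth was 5204 UMIs, beside 3295 over the library. Ccl8 stood at 720.0 CPM in Cd206+ Mφs and 246 in Timp2+ Mφs, and at 26.6 in cluster 2, 9.23 in Ccr2+ int Mφs and 5.88 in Ly6c+ monocytes, the last from 1 UMI. Ccl12 was at 684 CPM in Cd206+ Mφs, 219.7 in Ccr2+ int Mφs and 66.4 in Timp2+ Mφs, and no UMI was found in the 28 Ly6c+ monocytes, in which 3 UMIs would be 17.7 CPM. Ccl7 was likewise highest in Cd206+ Mφs at 566 CPM, with 301 in Ccr2+ int Mφs and 150.1 in Timp2+ Mφs. Single cells held 61 of the 156 Ccl8 UMIs of Timp2+ Mφs and 58 of the 163 Ccl7 UMIs of Ccr2+ int Mφs, and without them these levels were 152 and 196 CPM. Groups under 20 cells are outside this order. Of these, 5 Fabp5+ Mo/Mφs held 48 Ccl2, 103 Ccl7, 24 Ccl8 and 38 Ccl12 UMIs. In 16 cells of cluster 9 the counts were 55, 68, 135 and 46. The Arg1+ Mo/Mφs, Cx3cr1+ Mφs and cluster 5 held 1 to 40 UMIs per gene.

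Ccl2 was the exception at 72h, with 528 CPM in Ccr2+ int Mφs above 382 in Cd206+ Mφs, 188 in Ly6c+ monocytes and 161 in Timp2+ Mφs. Of the 286 Ccl2 UMIs of Ccr2+ int Mφs, 1 cell held 55, and the level without it was 432 CPM. Ccr2+ int Mφs were the highest state for Ccl2 at 72h in 8 of 12 settings of the processing, and an unnamed cluster in the other 4. The value of Ly6c+ monocytes also rested on 1 cell with 21 of 32 UMIs, without which it was 68.4 CPM.

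The 2 main Mφ states of the recovery phase differed in the whole family. Cd206+ Mφs exceeded Timp2+ Mφs by 2.37-fold (1.91 to 2.96) for Ccl2, 3.77-fold (3.04 to 4.72) for Ccl7, 2.92-fold (2.46 to 3.48) for Ccl8 and 10.3-fold (7.57 to 14.4) for Ccl12. All 4 members were therefore at least 2-fold higher, against 6.56% of the 2729 genes compared, while 11.0% of genes were at least 2-fold lower. After thinning, none of the 4 ligands was detected in 60.0% of Timp2+ Mφs and 25.7% of Cd206+ Mφs.

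In the naive muscularis, the 27 Cd206+ and 73 Cx3cr1+ Mφs were large enough to compare, and both held UMIs of all 4 ligands. Only Ccl12 was higher in Cx3cr1+ Mφs, at 716 against 437 CPM, a ratio of 1.64 (1.16 to 2.36). This state held 59.7% of the naive Ccl12 UMIs, but 40 of its 160 came from 1 cell. Without the highest cell of each state the Ccl12 levels were 545 and 363 CPM. Naive B cells, whose immunoglobulin genes led the Cx3cr1+ cluster, had 10.9 CPM of Ccl12. Ccl8 was higher in Cd206+ Mφs, at 1799.9 CPM against 85.0, although 104 of the 173 UMIs came from 1 cell and the level without it was 758 CPM. Ccl2 (468 against 219 CPM) and Ccl7 (562 against 224 CPM) were higher in Cd206+ Mφs too. These levels rest on 42 to 173 UMIs in Cd206+ Mφs and on 19 to 160 UMIs in Cx3cr1+ Mφs.

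Few states were present with 20 or more cells at more than 1 time, and the course over time was not the same in each of them. In Ly6c+ monocytes (301 cells at 24h and 28 at 72h), the level at 72h was 0.141 times that at 24h for Ccl2, 0.0537 for Ccl7 and 0.123 for Ccl8, and for Ccl12, with 0 UMIs at 72h, at most 0.0342 when the count is set to a floor of 3 UMIs. In Ccr2+ int Mφs (195 and 72 cells), in contrast, Ccl2 at 0.872 (0.760 to 0.999), Ccl7 at 0.942 (0.782 to 1.13) and Ccl12 at 1.198 (0.955 to 1.497) were near their 24h levels, and Ccl8 was at 0.285 from 5 UMIs. Cluster 2 was low throughout, at 0.0989 to 0.221 of the 24h level. Its 22 cells at 72h held 7 UMIs of Ccl2, 5 of Ccl7, 2 of Ccl8 and 3 of Ccl12.

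Ccl8 was accordingly lower at 72h than at 24h in each of these 3 states, and 1.91-fold higher in the class as a whole. The 72h values rest on 1 UMI in Ly6c+ monocytes, 5 in Ccr2+ int Mφs and 2 in cluster 2. The Cd206+ and Timp2+ Mφs that held most Ccl8 at 72h numbered 256 and 129 cells in that library, against 7 and 1 at 24h. In Cd206+ Mφs the level at 72h, relative to the 27 naive cells, was 0.816 for Ccl2, 1.01 for Ccl7, 0.400 for Ccl8 and 1.57 (1.15 to 2.19) for Ccl12. Without the highest cell of each library, the level of Ccl8 in this state was 758 CPM in naive and 647 CPM in 72h cells.

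The mixture of ligands also differed between libraries and states. Of the summed UMIs of the 4 genes in monocytes/Mφs, Ccl2 and Ccl7 made up 15.3% and 20.9% in the naive library, 41.4% and 36.4% at 24h, and 22.6% and 26.1% at 72h. Ccl8 accounted for 29.9%, 7.35% and 26.7%, and Ccl12 for 33.8%, 14.8% and 24.6%. Ccl12 made up 57.6% in naive Cx3cr1+ Mφs and Ccl2 68.4% in Arg1+ Mo/Mφs at 24h. Ccl8 made up 55.1% in naive Cd206+ Mφs, where 1 cell held 104 of its 173 UMIs, and 164 of the 457 Ccl2 UMIs of Arg1+ Mo/Mφs likewise came from 1 cell.

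The Ccr2+ int Mφs had similar mixtures at 24h and 72h. Ccl2 made up 53.1% at 24h and 49.9% at 72h, Ccl7 28.0% and 28.4%, Ccl8 2.84% and 0.873%, and Ccl12 16.1% and 20.8%. Ly6c+ monocytes at 24h were close to it, with 50.2% Ccl2 and 1.79% Ccl8, whereas Fabp5+ Mo/Mφs held 10.2% Ccl8. At 72h the ligand UMIs of Timp2+ Mφs were 39.5% Ccl8 and 10.6% Ccl12, against 30.6% and 29.1% in Cd206+ Mφs.

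**Figure D3:**
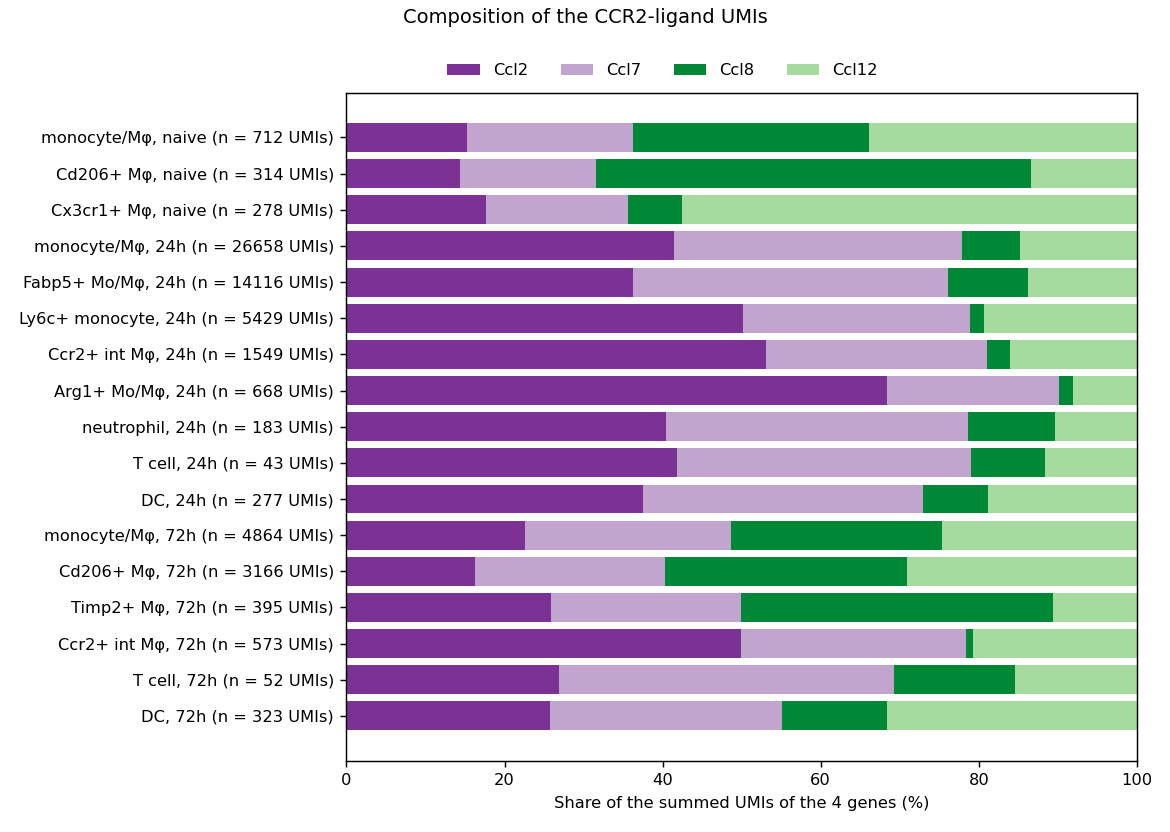
Share of each ligand (colour) in the summed UMIs of the 4 genes (x axis, %) for cell classes and monocyte/Mφ states of each library (y axis, with the number of UMIs). Ccl2 and Ccl7 take most of the UMIs in the 24h groups, and Ccl8 and Ccl12 together the larger part in naive Cd206+ and Cx3cr1+ Mφs and in 72h Cd206+ Mφs.

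Outside the monocytes/Mφs the 4 genes were present at lower levels. At 24h Ccl2 was at 182 CPM in neutrophils, 122 in DCs, 95.5 in T cells and 77.4 in B cells, and Ccl7 at 172, 115, 84.9 and 181 CPM, the last from 14 UMIs. In neutrophils and T cells the mixture at 24h was close to that of the monocytes/Mφs, and in B cells it was not. Among the 183 ligand UMIs of neutrophils at 24h, Ccl2 made up 40.4%, Ccl7 38.3%, Ccl8 10.9% and Ccl12 10.4%, and among the 43 of T cells the shares were 41.9%, 37.2%, 9.30% and 11.6%. Among the 21 ligand UMIs of B cells at 24h, Ccl7 made up 66.7% (43.0 to 85.4), Ccl2 28.6%, Ccl12 4.76% and Ccl8 0. Levels in T cells also moved with the library, from 2.10 CPM of Ccl2 (1 UMI) in naive cells to 95.5 at 24h and 33.0 at 72h. The part of free RNA in these levels was not tested. In naive B cells 48 UMIs of Ccl8 (65.2 CPM) came from 6 of 268 cells, 34 of them from 1 cell, and Ccl8 made up 54.5% of their 88 ligand UMIs.

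DCs stood at a similar low level, and at 72h Ccl12 made up 31.6% of their 323 ligand UMIs and Ccl8 13.3%, beside 24.6% and 26.7% in monocytes/Mφs. Of the 102 Ccl12 UMIs of DCs at that time, 52 came from 1 cell. Their thinned shares of cells at 72h were 7.10% for Ccl2, 9.68% for Ccl7, 3.87% for Ccl8 and 7.74% for Ccl12, beside 5.19%, 6.67% and 2.96% of T cells for Ccl2, Ccl7 and Ccl12. Before thinning, Ccl8 was found in 8 of the 136 T cells (5.88%) and in 15.2% of DCs, with median depths of 2710 and 6965.5 UMIs.

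Individual cells often held more than 1 of the ligands. Among 1468 monocytes/Mφs at 24h thinned to 1500 UMIs, Ccl7 was detected in 60.1% (56.6 to 63.4) of cells with Ccl2 and in 30.7% of those without. Ccl12 was found in 35.7% of cells with Ccl2 and 16.3% of those without, but Ccl8 in 10.5% (8.49 to 12.8) and 8.45% (6.41 to 10.9), intervals that overlap. Ccl7 was detected in 65.2% of cells with Ccl8 and 45.4% of those without. At 72h Ccl12 was found in 49.3% of cells with Ccl7 and 19.3% of those without, and in 44.6% of cells with Ccl8 against 23.1%. These shares pool states that differ in level, and cells of 1 library are not replicates.

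Counted per cell, at least 3 of the 4 ligands were detected in 5.79% of naive, 17.6% of 24h and 11.5% of 72h monocytes/Mφs. None was detected in 57.9%, 25.1% and 44.0%. Fabp5+ Mo/Mφs had the smallest part without any ligand (12.2%) and the largest with at least 3 (32.9%), followed by naive Cd206+ Mφs (19.0%, of 21 cells) and 72h Cd206+ Mφs (18.4%). Of the 28 Ly6c+ monocytes at 72h, 78.6% had none and no cell had more than 1, whereas at 24h 29.0% of this state had none.

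**Figure D4:**
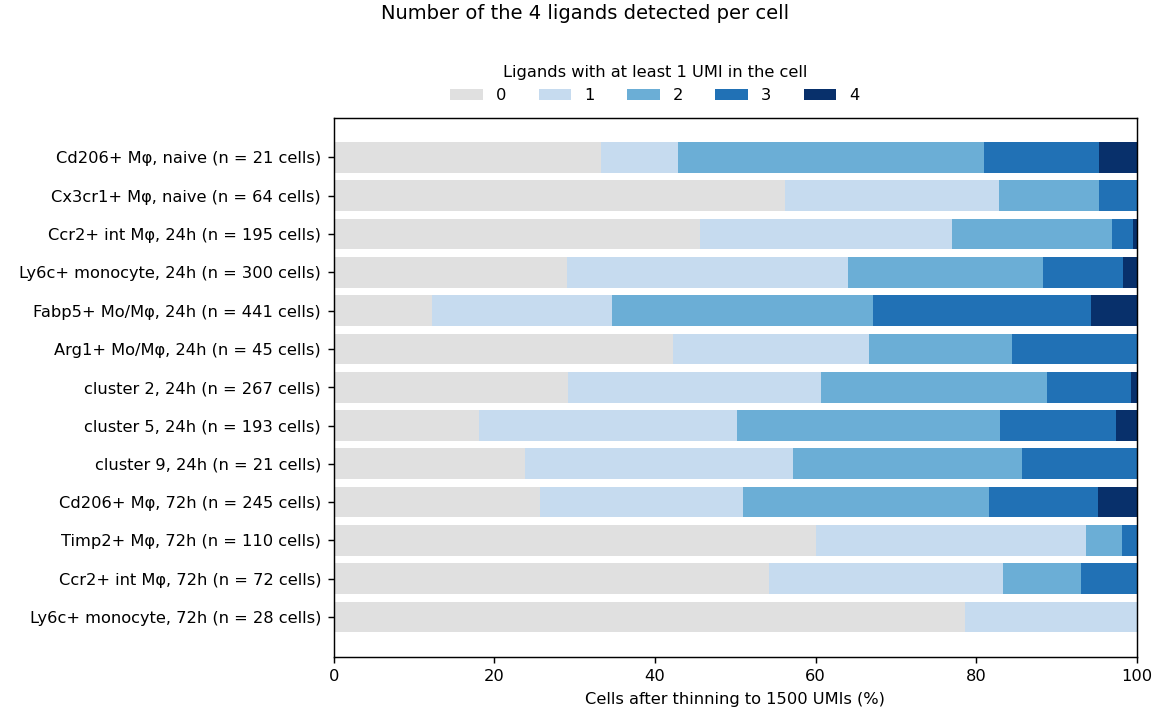
Share of cells (x axis, %) in which 0, 1, 2, 3 or 4 of the ligands had at least 1 UMI (colour) after thinning to 1500 UMIs, for monocyte/Mφ states with at least 20 such cells (y axis). Fabp5+ Mo/Mφs at 24h hold the largest share with 3 or 4 ligands, 32.9%, and Ly6c+ monocytes at 72h the largest share with none, 78.6%.

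The receptors differed less between libraries than Ccl2 and Ccl7. Ccr2 itself was at 412, 752 and 644 CPM in monocytes/Mφs at naive, 24h and 72h, and thus 1.83-fold (1.59 to 2.11) higher at 24h than in naive cells. Ccr1 (176, 188 and 182 CPM), a receptor shared by many CC chemokines, varied little. Of 15 CC chemokine receptors and scavengers listed, 13 were measured, 4 reached 50 CPM and 0 passed 2-fold at 24h over naive in either direction, against 11.4% and 8.39% of all genes. The median log2 ratio of those 4 was 0.02. Ccr8 had 0 UMIs in monocytes/Mφs, and the scavengers Ackr1 and Ackr2 were not analysed here.

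Ccr2 and Ccl8 were highest in different states at 24h and 72h, whereas Ccl2 at 72h was highest in a state that also had much Ccr2. At 24h Ccr2 was at 1214 CPM in Ly6c+ monocytes, 1054 in Ccr2+ int Mφs and 436 in Fabp5+ Mo/Mφs. Fabp5+ Mo/Mφs thus had 0.359 times the Ccr2 of Ly6c+ monocytes beside 9.53 times the Ccl8. The other Ccr2 levels were 798 CPM in cluster 5, 636 in cluster 9, 560 in cluster 2 and 384 in Arg1+ Mo/Mφs. Cluster 5 was also next after Fabp5+ Mo/Mφs for Ccl8, at 302 CPM, or 202 without its highest cell. At 72h Ly6c+ monocytes (1229.7 CPM) and Ccr2+ int Mφs (1196 CPM) were again highest and within counting error of each other, and Cd206+ (531) and Timp2+ Mφs (330.2) lower. In naive cells Ccr2 was at 343 CPM in Cd206+ Mφs and 331 in Cx3cr1+ Mφs, a difference within counting error. Ccr2 in Ly6c+ monocytes was thus nearly the same at both times while their ligand levels were not.

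In single cells at 24h, Ccr2 was detected in 48.2% (39.7 to 56.8) of monocytes/Mφs with Ccl8 and 61.8% of those without. The corresponding shares were 53.7% and 66.5% for Ccl7 and 57.5% and 64.3% for Ccl2. At 72h they were 33.7% and 51.8% for Ccl8, but 46.6% and 49.1% for Ccl2, 43.6% and 50.1% for Ccl7, and 47.9% and 48.6% for Ccl12, with overlapping intervals for these 3. With Ccl12 no such gap was seen at 24h, at 62.0% (57.0 to 66.8) and 59.9%. Outside the monocytes/Mφs, Ccr2 at 24h was at 507 CPM in DCs and 318 in T cells, and Ccr1 at 1003 CPM in neutrophils.

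**Figure D5:**
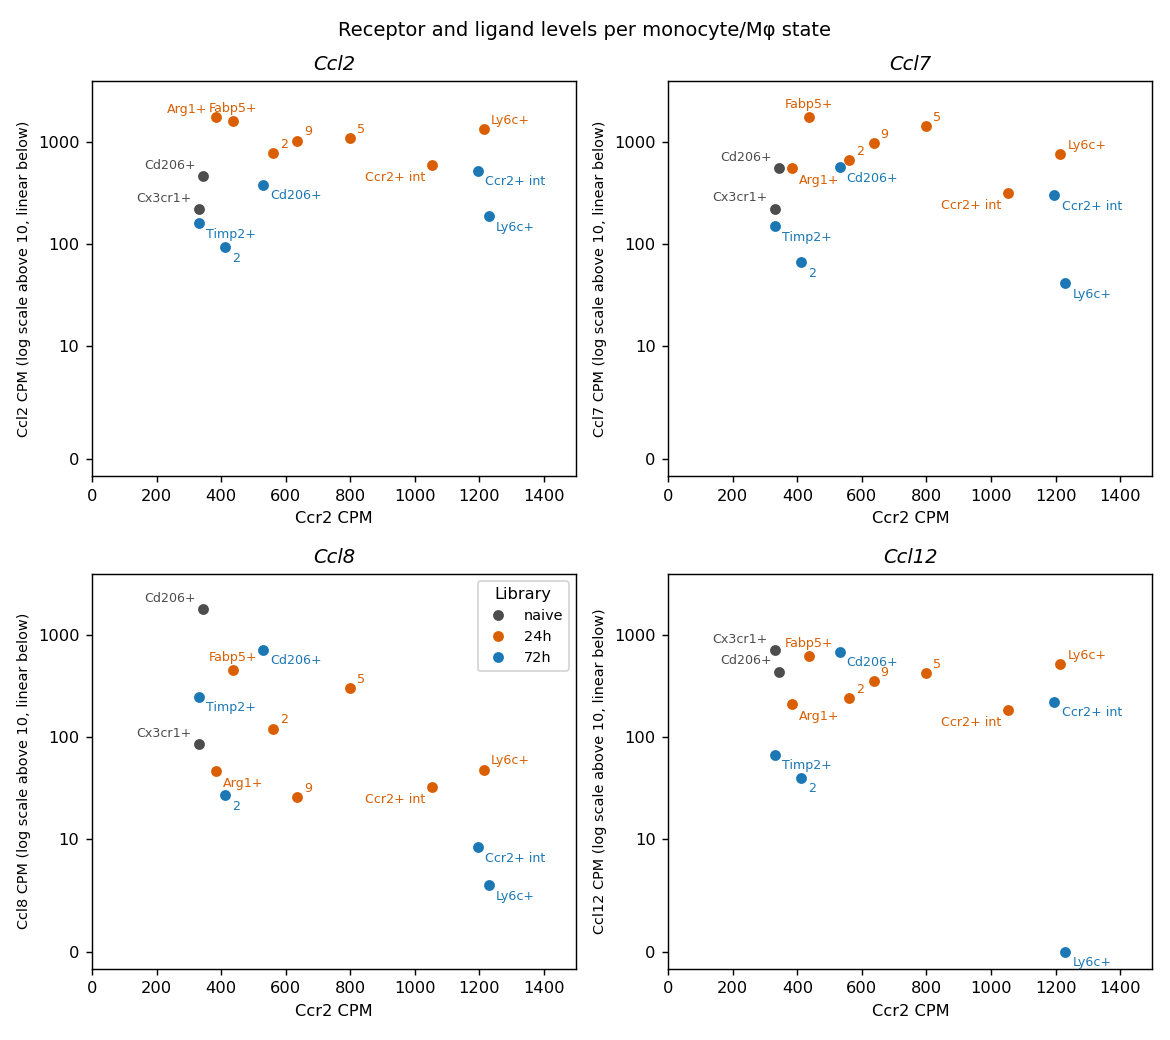
Level of each ligand (y axis, CPM, log scale above 10 and linear below) against that of Ccr2 (x axis, CPM, linear) in monocyte/Mφ states and unnamed clusters (numbers) with at least 20 cells, by library (colour). For Ccl8 the states with the most Ccr2, Ly6c+ and Ccr2+ int, lie at or below 47.7 CPM. The 3 states with the most Ccl8 (naive and 72h Cd206+ and 24h Fabp5+) lie at or below 531 CPM of Ccr2. Cluster 5 at 24h comes next for Ccl8 at 302 CPM, with 798 CPM of Ccr2.

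Other genes of the pathway moved in several ways between libraries. Of 16 other CC chemokines listed, 12 were measured and 6 reached 50 CPM at 24h or naive. Of these, 3 were at least 2-fold higher at 24h, against 11.4% of all genes, namely Ccl6 (2166 to 8466 CPM), Ccl9 (669 to 3813) and Ccl24 (44.6 to 476). Ccl6 and Ccl9 each exceeded all 4 Ccr2 ligands in both libraries. Ccl3 (0.420) and Ccl5 (0.317) were at least 2-fold lower, against 8.39%. Ccl11, which lies between Ccl7 and Ccl12 on the chromosome, had 0, 1 and 2 UMIs in monocytes/Mφs.

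Most interferon-response genes were, like Ccl2 and Ccl7, highest at 24h. Of 10 that reached 50 CPM, 8 were at least 2-fold higher at 24h than in naive cells and 9 of 10 lower at 72h than at 24h, against 11.4% and 4.86% of all genes, with median log2 ratios of 1.83 and −3.21. Isg15 was 8.16-fold higher and then at 0.0915, and Irf7 10.0-fold and 0.140. At 24h Isg15 was at 1356 CPM in Ly6c+ monocytes and 604 in Fabp5+ Mo/Mφs, the opposite order from Ccl7 and Ccl8. Of 6 inflammatory genes compared, 0 were higher at 24h, against 11.4% of all genes, and 1 was lower, Nfkbiz at 0.340, against 8.39%, counts near those shares. Of 3 regulators of mRNA decay, among them Zfp36 at 0.652, 0 passed 2-fold.

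Across the 27 groups of cells formed by state or class and library, the genes most like each ligand were ranked by Pearson's r of log2(CPM + 10) among 6523 genes. Ccl7 was the gene most like Ccl2 (r = 0.936), followed by the Fc receptor gene Fcgr1 (0.923) and the clathrin light chain gene Clta (0.893). For Ccl7, Ccl2 was followed by Lgmn (0.856), which encodes a lysosomal protease, and Ccl12 (0.852). The genes most like Ccl8 were Cbr2 (0.828), Igf1 (0.820), Itsn1 (0.818) and Stab1 (0.811), 2 of which are markers of Cd206+ Mφs, and those most like Ccl12 were Dab2 (0.888), Adap2os (0.872) and the clathrin heavy chain gene Cltc (0.854). Between the members, r ranged from 0.414 for Ccl2 with Ccl8 to 0.936 for Ccl2 with Ccl7. Over the 14 monocyte/Mφ groups alone, r was 0.127 for Ccl2 with Ccl8, 0.868 for Ccl2 with Ccl7 and −0.565 for Ccl8 with Ccr2. The groups share libraries and depth, and these values are a description without a test.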

How the data were processed

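Droplet-based 3′ single cell RNA sequencing (10x Genomics) was performed by the authors on CD45+ muscularis cells, with Cell Ranger 3.0.2 and the mouse build GRCm38 (mm10) named in the submitters' processing notes. The deposited values are UMI counts per gene and cell, 1 table per time point, from which cells with fewer than 200 genes or over 10% mitochondrial UMIs had been removed by the authors. Every cell in the tables was kept, and doublets called by Scrublet (scanpy 1.11.5) were removed only as an alternative (3, 5 and 8 cells). Of cell barcodes, 1 was shared by each pair of libraries.

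Cells of the 3 libraries were clustered together in Seurat 5.3.0 (R 4.3.3) on 2000 variable genes, with 71 chemokine, receptor and other reported genes kept out of them, 30 principal components (20 when monocytes/Mφs were clustered alone), 20 neighbours and a resolution of 0.8. A marker counted for a cluster when it was at least 2-fold above the other clusters and detected in at least 10% of its cells. For cell classes, only clusters scored as other classes served for this comparison. With at least 3 such markers, a cluster took the name of the type with the highest mean log2 ratio. No name was given if its leading genes held more markers of another type, or if it was shallow and they held none of its own. Names were rebuilt here and may differ from those of the study. UMIs were summed per group and library and divided by the summed total (CPM). CPM has exact Poisson intervals, a ratio the conditional exact Poisson interval, and a share the Clopper-Pearson interval. Genes with at least 50 CPM in either group were compared, a ratio of 2 was used as the threshold, and the floor for a count of 0 was 3 UMIs. Thinning to 1500 UMIs left out shallower cells, which were 18 of 139, 76 of 1544 and 42 of 581 monocytes/Mφs. With 1 library per time point no test was made, and no replicate could be left out. The genes named are the 4 members, the receptors, the listed genes past 2-fold with the highest level and the 5 genes most like each member. The members and all gene lists were chosen with earlier results of these data known. Python 3.11.15, scipy 1.17.1 and Biopython 1.88 were used, and the computation was tested on simulated data.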

Additional observations from a re-analysis of the deposited data

Results flagged for a closer look

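The ratio of Ccl12 at 72h to 24h was above 1 in one monocyte/Mφ state and below 1 in others. It was 1.198 in Ccr2+ int Mφs, from 119 UMIs at 72h and 249 at 24h, with an interval of 0.955 to 1.497 that includes equal levels. Without the highest cell of each library the levels in this state were 163 CPM at 72h and 154 CPM at 24h. In Ly6c+ monocytes it was at most 0.0342, with 0 UMIs in 28 cells at 72h set to the floor of 3, and in cluster 2 it was 0.166, from 3 UMIs at 72h. The difference between the states was not tested, since each state came from 1 library per time point.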

How the results depend on the processing

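No paired analysis was possible because each time point had 1 library, and for the same reason no replicate could be left out. The log2 ratios of Ccl2 and Ccl7 between libraries kept their sign under all 13 alternatives, and 129 of 156 ratios in all moved by less than their counting interval. For Ccl8 and Ccl12 the sign did not hold under all 13 in comparisons with the naive library, and the cause was not tested. At 24h over naive it held under 12 for Ccl8 and 11 for Ccl12. At 72h over naive it held under 8 for Ccl8 and 12 for Ccl12. Removal of cells under 500 genes or over 5% mitochondrial UMIs gave log2 ratios for Ccl8 of −0.066 at 24h over naive and 0.83 at 72h over naive. Thinning to 1500 UMIs gave 1.26 (72h over 24h) and 0.21 (72h over naive) for Ccl8, and −0.60 (24h over naive), −0.10 (72h over 24h) and −0.70 (72h over naive) for Ccl12. The mean of per-cell CPM gave 1.18 (72h over 24h) and 0.31 (72h over naive) for Ccl8, and −0.53 (24h over naive) and −0.64 (72h over naive) for Ccl12. The next 2 alternatives were chosen after seeing the data. Without the cell with the most UMIs, Ccl8 was at −0.16 (24h over naive) and 0.78 (72h over naive) and Ccl12 at 0.059 (24h over naive), and without cluster 9 Ccl8 was at 0.81 (72h over 24h). Over all cells of a library, in the order 24h over naive, 72h over 24h and 72h over naive, the log2 ratios were 3.98, −2.18 and 1.80 for Ccl2, 3.33, −1.79 and 1.55 for Ccl7, 0.32, 0.44 and 0.76 for Ccl8, and 1.41, −0.60 and 0.81 for Ccl12.

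The ratio of the highest to the median state moved in 34 of 88 cases, beside main values at 24h and 72h of 1.62 and 2.80 for Ccl2, 2.32 and 3.77 for Ccl7, 9.53 and 27.1 for Ccl8, and 1.74 and 10.3 for Ccl12. The stricter cell filter gave 5.86 for Ccl8 at 24h, and removal of doublets 1.39 for Ccl2 at 24h, 2.66 for Ccl7 at 72h, 5.41 for Ccl8 at 24h and 6.60 for Ccl12 at 72h. A resolution of 0.5 gave 2.56 for Ccl7 at 72h, 5.65 for Ccl8 at 24h and 6.24 for Ccl12 at 72h, and 1.2 gave 1.86 for Ccl7 at 72h, 2.89 for Ccl12 at 24h and 4.77 at 72h. With 15 and 10 components the values were 1.87 and 1.89 for Ccl2 at 24h and 72h, 1.86 and 2.34 for Ccl7, 5.89 for Ccl8 at 24h and 4.79 for Ccl12 at 72h. With 3000 variable genes they were 2.75 for Ccl7 at 72h, 12.3 for Ccl8 at 24h, and 2.51 and 5.44 for Ccl12. When chemokine and receptor genes could also be variable genes, they were 6.18 for Ccl8 at 72h, and 2.37 and 5.98 for Ccl12, and another seed gave 2.35 for Ccl12 at 24h. Thinning gave 1.76 for Ccl2 at 72h, 2.78 and 2.67 for Ccl7, 6.60 and 7.23 for Ccl8, and 4.74 for Ccl12 at 72h, the per-cell mean 7.39 for Ccl8 at 24h, and leaving out the top cell 2.68 for Ccl7 and 2.66 for Ccl12 at 24h. In each of 12 settings Ccl7, Ccl8 and Ccl12 were highest in Fabp5+ Mo/Mφs at 24h and in Cd206+ Mφs at 72h, whereas Ccl2 at 24h was highest in Arg1+ Mo/Mφs in 9 settings and in Fabp5+ Mo/Mφs in 3, and at 72h in Ccr2+ int Mφs in 8 and in an unnamed cluster in 4. Thinning moved the composition to 12.4% Ccl2, 17.5% Ccl7 and 42.3% Ccl12 in the naive library, 7.03% Ccl8 at 24h, and 21.4% Ccl2, 24.2% Ccl7 and 29.96% Ccl8 at 72h. Of all genes, 189 were then at least 2-fold higher and 234 lower at 72h over naive. With no minimum CPM but 10 UMIs, the counts of higher and lower genes were 754 and 2490 at 24h over naive, 1058 and 435 at 72h over 24h, and 385 and 869 at 72h over naive. Depth limits the naive values most, since they rest on 109 to 241 UMIs per gene in monocytes/Mφs.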
